A study of Arabidopsis thaliana with 8 samples.

Results

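Plants read their light environment with several families of photoreceptor. Phytochromes (PHYA to PHYE) sense red and far-red light through a bilin chromophore, cryptochromes (CRY1 and CRY2) sense blue light through a flavin, phototropins (PHOT1 and PHOT2) are blue-light kinases that drive phototropism and chloroplast movement, and UVR8 senses UV-B. Several of them act on CONSTANS (CO), the B-box protein that activates the florigen gene FT in long days: light sensed by phytochrome A and the cryptochromes favours CO protein, phytochrome B lowers it early in the day, and the COP1/SPA ubiquitin ligase degrades it in the dark. Whether CO protein in turn sits at the genes of these receptors was read here from deposited chromatin immunoprecipitation (ChIP-seq) peak lists. The genes examined were the 10 photoreceptor genes PHYA (AT1G09570), PHYB (AT2G18790), PHYC (AT5G35840), PHYD (AT4G16250), PHYE (AT4G18130), CRY1 (AT4G08920), CRY2 (AT1G04400), PHOT1 (AT3G45780), PHOT2 (AT5G58140) and UVR8 (AT5G63860), out of 27444 nuclear protein-coding genes. A peak was assigned to each gene that held its summit, the base of highest signal, or that ended no more than 3000 bp from that base.

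Arabidopsis thaliana seedlings of 2 genotypes were grown in long days and harvested at 7 days. The 35S:CO plants express CO from a viral promoter that is active in most tissues, so its transcription is not limited to the cells and hours of the native gene. The level of CO protein cannot be read from the peak lists. The co-10 plants are CO mutants and show what the anti-CO antibody gives without functional CO. Both genotypes were sampled as 2 immunoprecipitates and 2 inputs without antibody, 8 samples in all, but the deposited peak names carry the word "both", taken here to mean that the replicates were pooled. No value below has a replicate check, therefore, and no test was made. The lists were a 35S:CO list of 3306 peaks, a co-10 list of 380 peaks, and a filtered list of 3214 peaks that contains only 35S:CO peaks. The reads per sample are unknown from peak lists.

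Anti-CO signal was listed near 6 of the 10 photoreceptor genes. PHYA, PHYB, PHYE, CRY1, PHOT1 and PHOT2 had a filtered summit within 3000 bp, with 2 summits at CRY1 and 1 at each of the others, 7 peaks in all. PHYC, PHYD, CRY2 and UVR8 had none. Over all nuclear protein-coding genes the share at that distance was 19.2%, and it was 21.3% among the 5902 genes whose length lay between that of the shortest and the longest photoreceptor gene. The 35S:CO list gave the same 7 peaks, against 19.3% of all genes, so none of them had been removed by the authors' filter. In the co-10 list, 0 of the 10 genes had a summit within 3000 bp, against 0.619% of all genes.

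**Figure D1:**
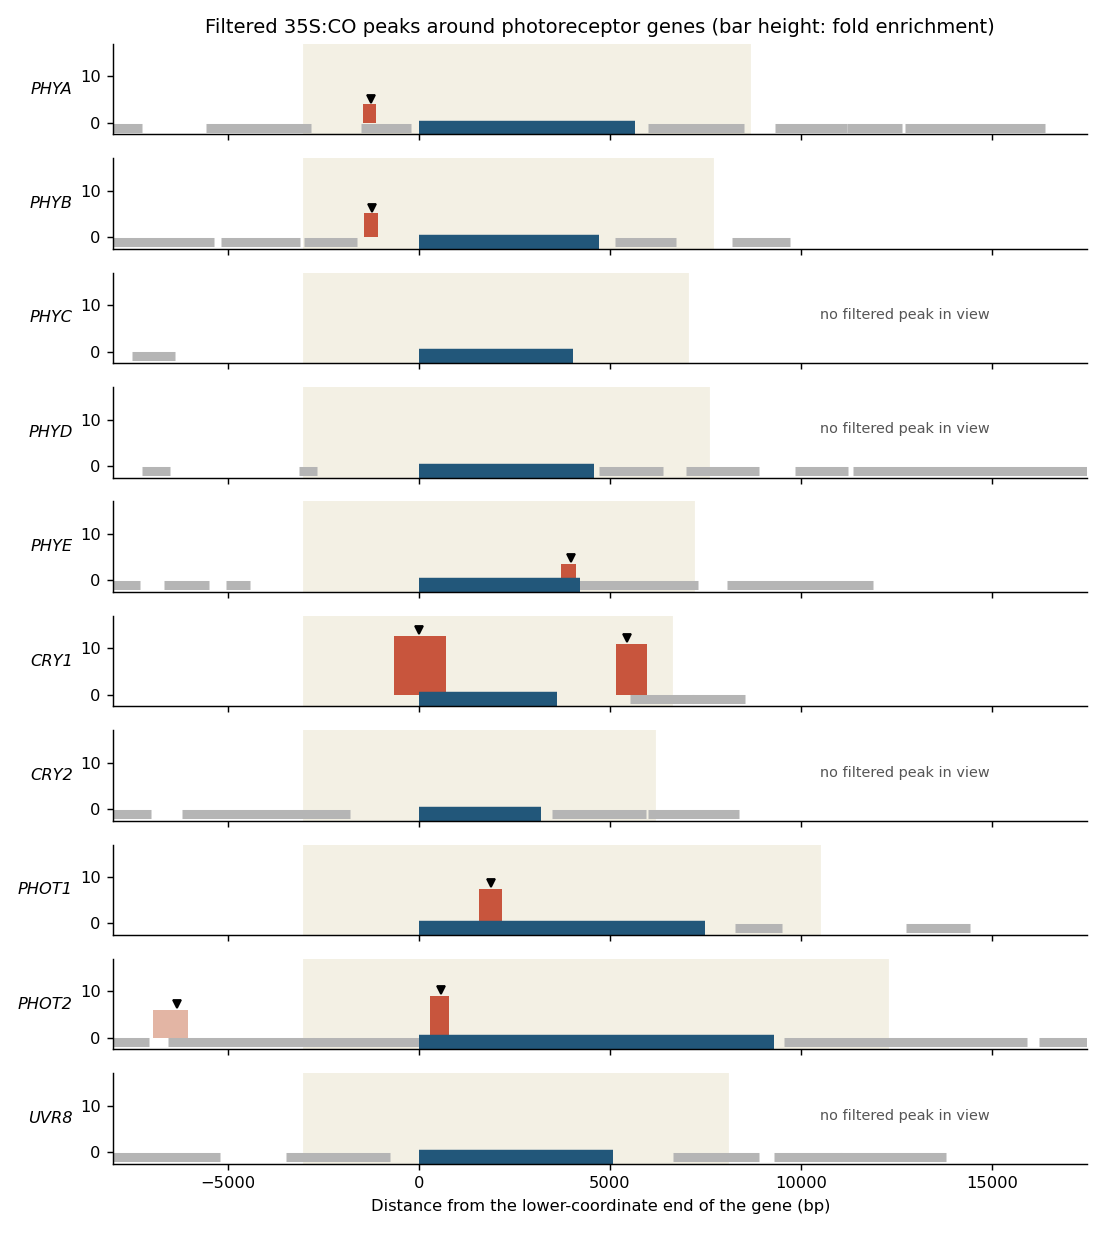
Positions of filtered peaks around the 10 photoreceptor genes, in bp from the end of the gene with the lower coordinate. The dark bar is the photoreceptor gene, grey bars are other protein-coding genes, the shaded band reaches 3000 bp beyond the gene, and each peak is drawn with its width and its fold enrichment as height and a triangle at its summit. Peaks in dark red have their summit in the band, and the pale peak 6331 bp from PHOT2 lies outside it. The dark bar of PHOT2 covers another protein-coding gene, AT5G58150, which lies within the annotated extent of PHOT2.

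The strength of a peak is given here as the authors' fold enrichment, the ratio of signal to local background at the summit. It ran from 3.60 to 12.6 over the 7 peaks, with a median of 7.47, against a median of 5.45 over the 3210 nuclear filtered peaks, whose quartiles were 4.17 and 8.59. Of the 7 peaks, 4 lay above the median of the list. Taking the strongest peak of each gene, the median was 6.32 over the 6 photoreceptor genes with a summit and 6.15 over the 5257 protein-coding genes with one. Of the 7 peaks, 3 were above the upper quartile of the list and 2 below the lower. In fold enrichment, all 4 peaks near cryptochrome and phototropin genes were above the 3 near phytochrome genes. Another protein-coding gene lay nearer to 3 of the 7 summits, those of PHYA, PHYB and 1 of the CRY1 peaks. The intervals for counting error, given below, overlapped between PHOT1 and PHYB.

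CRY1, the main blue-light receptor of seedling de-etiolation, had the strongest of the 7 peaks. It spanned 5723004 to 5724359 on chromosome 4 (coordinates as in the deposited lists, counted from 1, build TAIR10 per the submitters' processing notes). Its fold enrichment was 12.6. The number of fragments stacked over the summit, the pileup, was 48, where the local background was 2.88 fragments. The summit lay 6 bp outside the annotated gene, at its lower-coordinate end, and 52.3% of the peak's bases lay in the gene. The gene table used has no strand, so it cannot be said from it whether this is the start or the end of CRY1. With 1356 bp the peak was the widest of the 7, and 2.49% of all nuclear filtered peaks were wider. No other protein-coding gene lay nearer than 5524 bp to that summit, so within 3000 bp it could be assigned to CRY1 alone.

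The other CRY1 peak spanned 5728822 to 5729629 on chromosome 4, on the opposite side of the gene. It reached a fold enrichment of 10.9, with 42 fragments at the summit and 2.93 in the background. The summit was 1824 bp from CRY1 but 77 bp from APRL6 (AT4G08930), the neighbouring gene, which is named for its likeness to adenylylsulfate reductases. It thus belonged to APRL6 by distance. Having at least 2 summits in reach was not rare: 20.0% of the protein-coding genes with a filtered summit had them. CRY2, the light-labile cryptochrome that promotes flowering in long days, had no peak, and the nearest filtered summit was 20.4 kb from the gene.

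Both phototropin genes had a summit inside the gene. At PHOT2, the phototropin known for the chloroplast avoidance response, the peak ran from 23524125 to 23524608 on chromosome 5. Its fold enrichment was 9.08, with 39 fragments at the summit and 3.41 in the background. The summit lay 581 bp inside PHOT2 from its lower-coordinate end and 588 bp outside ROS3, a gene for an RNA-binding protein of DNA demethylation. At PHOT1, the main receptor of phototropism in weak light, the peak ran from 16818282 to 16818907 on chromosome 3. Its fold enrichment was 7.47, with 26 fragments at the summit and 2.61 in the background. The PHOT1 summit lay 1900 bp inside the gene, with the next protein-coding gene 6384 bp away. Such a deep position was uncommon in the list. Of the 1225 filtered summits inside a protein-coding gene, 10.0% lay more than 1000 bp from both ends, and the median distance to the nearer end was 190 bp. Gene length limits this distance, and lengths were not matched. PHOT1 is 7.49 kb long, against a median of 2.08 kb over all genes. The table gives only the extent of each gene, so whether the PHOT1 summit is in an exon or an intron cannot be read from it.

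The phytochrome genes had the weakest peaks. PHYB, the main red-light receptor of green plants, had a peak from 8138319 to 8138694 on chromosome 2. Its fold enrichment was 5.16, with 20 fragments at the summit and 3.07 in the background. The summit lay 1238 bp outside PHYB and 376 bp outside AT2G18780, in the space between them. PHYA, the far-red receptor that is abundant in darkness, had a peak from 3093687 to 3094038 on chromosome 1. This peak had a fold enrichment of 3.98, with 14 fragments at the summit and 2.77 in the background. The summit was 1264 bp from PHYA and inside GLP5 (AT1G09560), a germin-like protein gene. PHYE, a phytochrome of the shade response, had a peak from 10045848 to 10046260 on chromosome 4. The PHYE value was the lowest of the 7, a fold enrichment of 3.60, with 17 fragments at the summit and 4.0 in the background.

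PHYE was the only phytochrome gene with a summit inside it, 227 bp from the upper-coordinate end, and the neighbouring gene SSP4b lay 168 bp beyond the same summit. In fold enrichment, 89.3% of the nuclear filtered peaks were above the PHYE peak, 80.9% above the PHYA peak and 53.4% above the PHYB peak. PHYD, the closest relative of PHYB in sequence, had no filtered summit nearer than 15.3 kb. PHYC, a light-stable phytochrome, had none nearer than 36.9 kb.

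**Figure D2:**
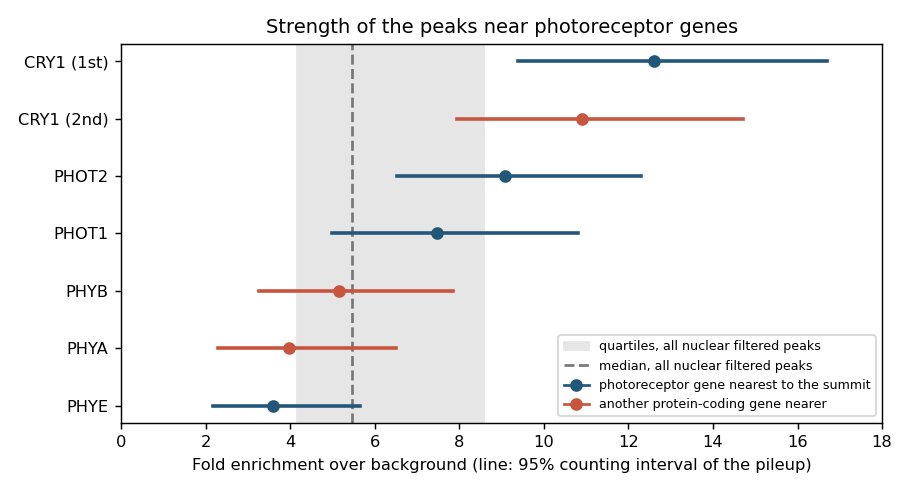
Fold enrichment (x axis, linear) of the 7 peaks near photoreceptor genes, with the 95% interval that counting error of the pileup gives, against the median (dashed) and quartiles (band) of all nuclear filtered peaks. The 2 CRY1 peaks and the PHOT2 peak lie above the band, and the PHYA and PHYE peaks lie below it.

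Counting error alone left neighbours in this order unseparated. With the background held fixed, the exact 95% Poisson interval of the pileup allowed fold enrichments of 9.39 to 16.7 at the stronger CRY1 peak and 7.95 to 14.7 at the other. It allowed 6.52 to 12.3 at PHOT2, 4.98 to 10.8 at PHOT1, 3.25 to 7.84 at PHYB, 2.29 to 6.49 at PHYA and 2.18 to 5.64 at PHYE. The intervals of both CRY1 peaks lay above those of the 3 phytochrome peaks, while each interval overlapped that of the next peak in the order. The PHOT2 interval lay above the PHYA and PHYE intervals but not above that of PHYB. These intervals cover counting error of pooled fragments only, and not the spread between plants or libraries.

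The phytochrome peaks were also the narrowest of the 7. They were 352 bp (PHYA), 376 bp (PHYB) and 413 bp (PHYE) wide, all below the list's median of 471 bp. The PHOT2 peak was 484 bp wide, the PHOT1 peak 626 bp and the weaker CRY1 peak 808 bp. In the whole list, 13.5% of peaks were wider than this CRY1 peak. The PHOT1 peak was wider than the PHOT2 peak although its fold enrichment was lower.

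**Figure D3:**
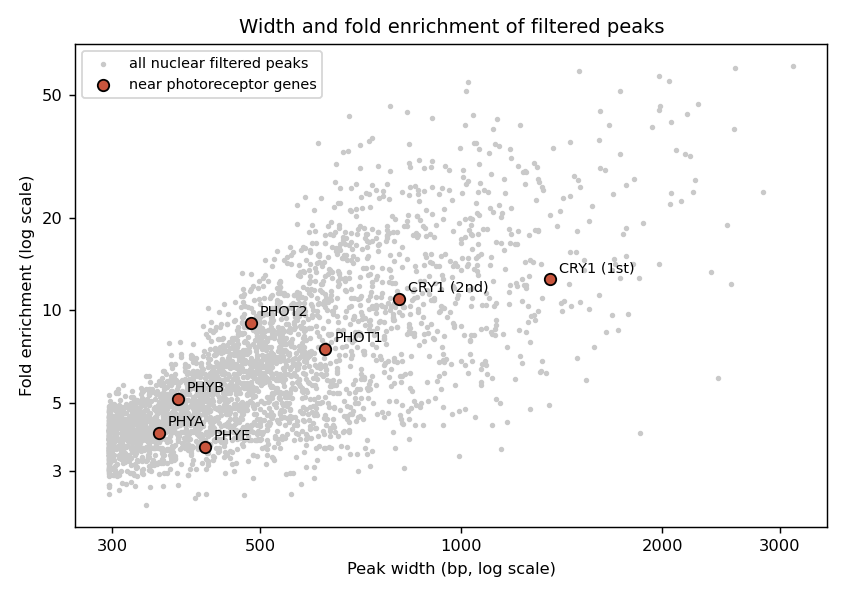
Width (x axis, bp, log scale) against fold enrichment (y axis, log scale) of all nuclear filtered peaks in grey and of the 7 peaks near photoreceptor genes in red. The stronger CRY1 peak stands to the right at 1356 bp, and the 3 phytochrome peaks sit among the narrow, weak peaks of the list.

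Which receptor genes count as carrying anti-CO signal depended on how a peak is tied to a gene. Of the 7 peaks, 4 had the photoreceptor gene as the nearest protein-coding gene (PHYE, the stronger CRY1 peak, PHOT1 and PHOT2), and 3 had another gene nearer (PHYA, PHYB and the weaker CRY1 peak). Assigning each summit to its nearest gene thus left PHYE, CRY1, PHOT1 and PHOT2, 4 of 10, against 9.39% of all genes. Summits inside the gene were found in 3 of 10, PHYE, PHOT1 and PHOT2, against 4.28%. A fold enrichment of at least 10 was reached at CRY1 only, 1 of 10 genes against 4.74%. The number of protein-coding genes in reach of each summit was 1 at PHOT1 and at the stronger CRY1 peak, 2 at PHYE and PHOT2, and 3 at PHYA, PHYB and the weaker CRY1 peak, with a median of 2 over the list.

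Other limits were tried on the same lists. With summits within 1000 bp, 4 of the 10 genes were counted against 11.2% of all genes, within 2000 bp 6 against 15.3%, and within 5000 bp 6 against 26.5%. Counting any base of a peak within 3000 bp gave 6 genes against 20.3%. A −log10 q-value of at least 5 left PHYB, CRY1, PHOT1 and PHOT2, against 16.2% of all genes, and a value of at least 10 left CRY1, PHOT1 and PHOT2, against 10.7%. The co-10 list gave 0 of 10 under each limit tried, against 0.321% within 1000 bp, 0.889% within 5000 bp and 0.670% by any base.

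The 3000 bp limit itself split no close cases. The farthest summit inside it was the weaker CRY1 peak at 1824 bp, and the nearest outside was a peak of fold enrichment 6.10 at 6331 bp from PHOT2. The next beyond the limit was 11.5 kb from CRY1, with a fold enrichment of 4.71. At UVR8 the nearest filtered summit was 39.2 kb away, the largest distance of the 10 genes.

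The co-10 control had no peak at any of these sites. None of the 7 peaks overlapped a co-10 peak by even 1 bp, and the nearest co-10 summit to any of them was 96.3 kb away, beside the weaker CRY1 peak. Such absence was the rule and not particular to these genes. Only 0.619% of all nuclear protein-coding genes had a co-10 summit within 3000 bp, and the filtered list kept 3214 of the 3306 35S:CO peaks. For the 10 genes the nearest co-10 summit lay between 98.1 kb (CRY1) and 5886 kb (CRY2) away. The control list was shallower, however: where peaks of both lists overlapped and neither background exceeded 10 fragments (47 pairs), the ratio of the co-10 to the 35S:CO background had a median of 0.530. If pileup and background are both scaled by that ratio, 5 of the 7 peaks would still pass the lowest −log10 p-value in the nuclear co-10 list, 4.28. The scaled values were 22.5 and 18.7 for the CRY1 peaks, 16.1 for PHOT2, 10.6 for PHOT1 and 6.80 for PHYB. They were 4.12 for PHYE and 3.83 for PHYA, below the 4.28. Peaks of this size might not have been listed in co-10, and nothing can be read from their absence there. The ratio of 0.530 rests on sites with a peak in both lists. Over all nuclear peaks the median background was 1.09 in the co-10 list and 3.07 in the 35S:CO list, further apart than 0.530. A smaller ratio would lower all the scaled values.

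Genes that act with the photoreceptors were counted in the same way from 6 lists with 39 genes. A filtered summit within 3000 bp was present at 26 of the 39, 66.7%, against the 19.2% of all genes. The lists were chosen with earlier results of these data known, so this share cannot be read as that of an independent set. The strongest peak per gene had a median fold enrichment of 10.1 over these 26 genes, from 4.07 to 24.7, where the 6 photoreceptor genes had 6.32. A fold enrichment of at least 10 was reached at 13 of the 39 signalling genes and at 1 of the 10 receptor genes, against 4.74% of all genes. The same peak of 19.6 was counted for both CIB1 and AT4G34550. These counts describe the lists, and the difference between them was not tested.

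In the phytochrome group, 4 of 10 genes had a summit, against 19.2% of all genes. That share also stands beside each group count below. TZP, a zinc-knuckle protein of phytochrome signalling, reached 24.7, the highest of the 39 genes, with the summit inside the gene. The loci AT4G34550 and AT2G16365, given here by locus identifier, reached 19.6 and 13.9. The 6 without a summit were HY1 and HY2, the enzymes that make the phytochrome chromophore, FHY1 and FHL, which carry phytochrome A into the nucleus, and FHY3 and FAR1, transcription factors that activate FHY1 and FHL. AT2G16365 was the one gene of the 39 with a co-10 summit in reach: a co-10 peak of fold enrichment 4.81 lay there, and a 35S:CO peak of 4.75 was missing from the filtered list. Of the 5 phytochrome interacting factors, transcription factors that light-activated phytochromes bind and restrain, PIF7 (19.8), PIF5 (6.23) and PIF4 (4.67) had a summit inside the gene, and PIF1 and PIF3 had no summit in reach.

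Each of the 4 genes listed with the cryptochromes had a summit, against 19.2% of all genes. The strongest peak reached 19.6 at CIB1, a transcription factor that binds CRY2 in blue light, 13.4 at AT3G44450 and 4.83 at CRY3, an organellar relative of the cryptochromes. The CIB1 summit lay 2335 bp from the gene and is the same summit as that of AT4G34550, from which it was 23 bp away. Of 8 genes of phototropin signalling, 6 had a summit, against the same 19.2%. The strongest were at RPT2, a phototropin partner in leaf positioning and phototropism (16.6), at JAC1, which is needed for chloroplast accumulation (11.4), and at PKS4, a phytochrome kinase substrate that acts in phototropism (6.34). NPH3, the scaffold that binds PHOT1, and BLUS1, the kinase that phototropins phosphorylate in guard cells, had none.

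UVR8 itself had no peak. Of the 9 genes listed with it and with COP1/SPA, 8 had a summit, against 19.2% of all genes. Like the other groups, this list was chosen with earlier results of these data known. SPA3 (24.3) and SPA1 (20.9), partners of COP1 in the ubiquitin ligase, were strongest, and SPA2 had none. RUP2, a repressor that returns UVR8 to its inactive dimer, reached 17.8 with a summit 1387 bp outside the gene. Among the 3 LOV F-box photoreceptors, which sense blue light with the same type of domain as the phototropins, ZTL had a strongest peak of 7.60 with its summit 2829 bp away, and FKF1 and LKP2 had none.

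**Figure D4:**
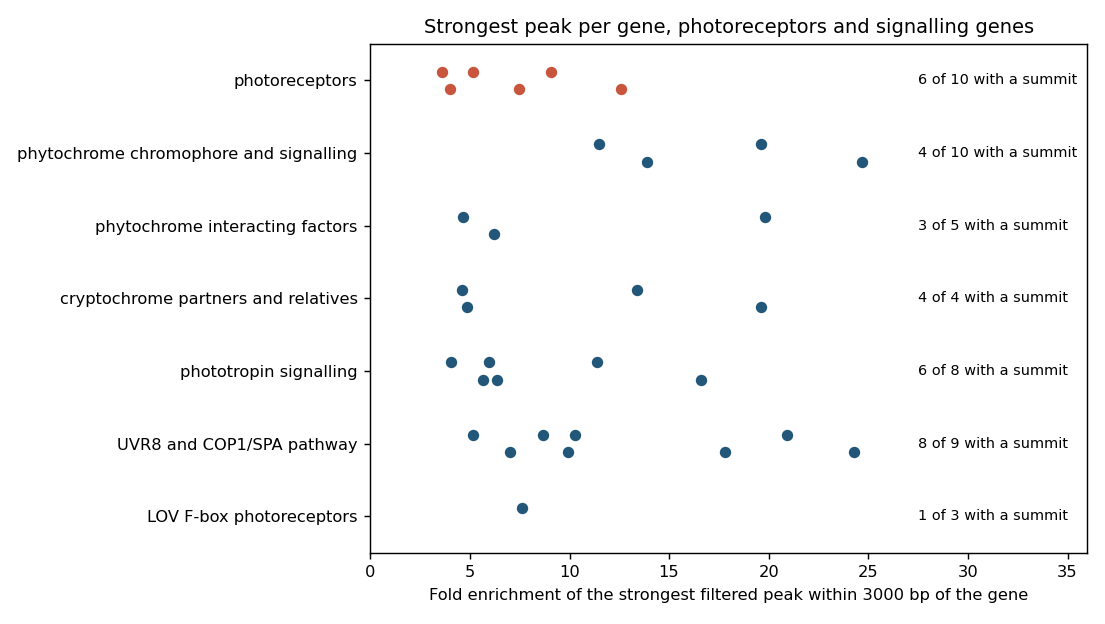
Fold enrichment of the strongest filtered peak within 3000 bp (x axis, linear), 1 point per gene, for the photoreceptor genes in red and for 6 groups of signalling genes in blue, with the number of genes that have a summit at the right. Points of the receptors end at 12.6, and those of the signalling genes reach 24.7. Over all nuclear protein-coding genes, 19.2% had a summit at that distance.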

How the data were processed

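CO binding was measured by ChIP-seq in seedlings crosslinked with 1% formaldehyde for 20 min and 1 mM disuccinimidyl glutarate for 10 min, per the labels. The submitters' processing notes name FastQC, Bowtie, MACS2 and deepTools and the build TAIR10. Their options, versions and thresholds were not given in the sources used here. The authors deposited 3 narrowPeak lists. Column 7, the fold enrichment, is a ratio the authors deposited; they also deposited the −log10 p-value and −log10 q-value of each peak, a score that was not used, and the summit as an offset in bp.

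The fragments over each summit (pileup) and the local background were recovered by solving the deposited fold, as (pileup + 1) / (background + 1), together with the deposited p-value, as the Poisson chance of more fragments than the pileup. Whole numbers to 4999 served as candidate pileups. The −log10 p-value was met to within 0.001 for 3205 of 3210 nuclear filtered peaks and for all 7 photoreceptor peaks. These values depend on that formula and cover fragments pooled over replicates. The labels mention no molecular identifiers, so intervals cover counting error only.

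Genes came from a RefSeq table of TAIR10.1 without strand, exons or sequence, so no sequence is shown and no gene coordinates are given. Moving the filtered summits along the chromosomes raised the share inside protein-coding genes from 38.2% to 43.5% and 43.2% at 500 bp to either side, and to 59.1% and 58.7% at 5000 bp. For 4 list entries the locus identifier is given, as a name was used only where the table holds it as symbol or synonym. Named genes were all photoreceptors, up to 3 signalling genes per group by fold enrichment, and neighbours nearer to a summit than the photoreceptor gene; genes without a summit, and neighbours beyond the photoreceptor gene, were named as well after their values were seen. The photoreceptor genes and the signalling lists were chosen with earlier results of these data known. Recovery and assignment were tested on simulated data. Python 3.11.15, numpy 2.4.6, pandas 2.3.3 and scipy 1.17.1 were used.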

Additional observations from a re-analysis of the deposited data

How the results depend on the processing

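No paired analysis was possible because the lists pool the replicates of a genotype and no value belongs to 1 of them; leaving out a replicate was not possible for the same reason. The motif search was not run, since no sequence was used here. Of 15 alternatives, 13 left the count within 1.5 times, but this tally includes counts of 0 that could not change. Photoreceptor genes with a filtered summit numbered 6, against 19.2% of all genes. They became 3 when only summits inside the gene counted, against 4.28%, which narrows the window by construction. With a −log10 q of at least 10 they were also 3, CRY1, PHOT1 and PHOT2, against 10.7%. The count was 4 within 1000 bp (11.2% of all genes), with the nearest gene only (9.39%) and with a −log10 q of at least 5 (16.2%). It was 6 within 2000 bp (15.3%), within 5000 bp (26.5%) and by any base of the peak (20.3%). The count of co-10 summits stayed 0 within 1000 and 5000 bp and by any base, as did the count of shared peaks with summits within 100 bp or peaks within 1000 bp of each other. Limits of this size could not change these counts. The nearest co-10 summit was 98.1 kb from any photoreceptor gene and 96.3 kb from any of their peaks. Signalling genes with a summit numbered 22 of 39 within 1000 bp and 22 with a −log10 q of at least 10. Depth limits the weakest peaks, at pileups of 14 (PHYA) and 17 (PHYE).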
